A study of Mus musculus with 12 samples.

Results

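Expression of 8 genes of the Hedgehog pathway was compared in 3 cell populations sorted from mouse embryos. The genes were Ihh, Shh, Ptch1, Smo, Gli1, Gli2, Gli3 and Hhip, chosen by their Ensembl gene IDs without regard to signal, and all 8 were among the 22400 rows of the deposited gene-level table. The symbols come with the list of IDs, since the deposited table gives IDs alone. Of these, 2 encode ligands (Ihh and Shh), and the others encode the receptor Ptch1, the transducer Smo, the transcription factors Gli1, Gli2 and Gli3, and the inhibitor Hhip.

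All embryos were at stage E7.5 and carried the same Foxf1::venus knock-in on a C57BL/6 background, in which the fluorescent protein VENUS marks cells that use Foxf1, a forkhead gene of the mesoderm. The sources used here give neither the number of embryos per sort nor whether 1 or both alleles carried VENUS. FLK1, the surface receptor encoded by Kdr, marks mesodermal precursors of blood and endothelium. The labels name the populations Flk-pos Foxf1-pos, Flk-neg Foxf1-pos and Flk-pos Foxf1-neg, which are called double-positive, FOXF1 single-positive and FLK1 single-positive cells here. Each was sorted 2 times, called sort 1 and sort 2, with 50 cells per sample, and each sample was hybridised to 1 exon array. The 12 deposited samples are these 6 arrays, once with a value per gene and once with a value per exon-level probe set, so each population had 2 replicates, described as biological in the design text.

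Hedgehog ligands are secreted proteins that bind Patched receptors such as Ptch1. In the absence of ligand Ptch1 keeps the membrane protein Smo inactive. Binding releases Smo, and the signal passes through the primary cilium to the Gli transcription factors. Ptch1, Gli1 and Hhip are themselves transcriptional targets of the pathway, so their RNA is widely used as a readout of Hedgehog response. In the gastrulating mouse embryo Ihh is made by visceral endoderm and Shh by the node and its derivatives, the adjacent mesoderm responds, and Foxf1 is known as a Hedgehog-dependent gene of lateral mesoderm.

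Signals are log2 values, so a difference of 1 is a factor of 2 in signal, and they allow a gene to be compared between arrays but not with another gene. Array medians over all rows lay between 6.00 and 6.07. No detection call was used, so a low signal does not show that a gene was off. In samples of sorted cells, fewer cells of a kind that express a gene and less RNA per cell cannot be told apart. The cell type of the populations could not be checked against marker genes, because only the 8 IDs named above carry symbols here. One row bears on the FOXF1 label if it is Foxf1, which the files do not settle: ENSMUSG00000042812 read 4.35 and 4.81 in double-positive cells, 8.51 and 7.91 in FOXF1 single-positive cells, and 4.71 and 4.43 in FLK1 single-positive cells. The double-positive cells are therefore called so only as labelled. The values of that row equalled those of 1 probe set on every array.

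None of the 8 genes passed an adjusted p of 0.05 between any populations (limma, Benjamini-Hochberg adjustment over all 22400 rows). Ptch1 was the member with the smallest p, and its signal was higher in FOXF1 single-positive cells than in each of the other populations on both arrays. Against double-positive cells this compared different probe sets, and 32.4% of all rows did not overlap there. In double-positive against FOXF1 single-positive cells, probe set 4535511, which gave both double-positive values of Ptch1, differed by 0.026 log2 units. Probe sets 4956509 and 4749419, which gave the FOXF1 single-positive values, differed by -1.08 and -2.41 and were found through those values. The ligand gene Shh and the readout genes Gli1 and Hhip also had higher signals in FOXF1 single-positive than in FLK1 single-positive cells without overlap, as did 17.9% of all rows. For Hhip neither of the probe sets found behind the value showed that difference, and probe sets never equal to the value were not seen. For Shh these populations overlapped in the probe set that equalled the gene-level value on 4 arrays, none of them FOXF1 single-positive. The probe sets that gave its FOXF1 single-positive values, 4646084 and 4367440, differed by 0.0070 and 0.79 log2 units. Ihh, Smo, Gli2 and Gli3 differed between populations by at most 0.21 log2 units. The FOXF1 single-positive cells had the highest mean for 5 of the 8 genes, the double-positive cells for 2 and the FLK1 single-positive cells for 1. The share over all rows was not taken, and for Ihh, among the 5, the lead over FLK1 single-positive cells was 0.0095 log2 units.

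Ihh (ENSMUSG00000006538), the ligand known from visceral endoderm, had signals of 7.06 and 7.21 in double-positive cells, 7.05 and 7.58 in FOXF1 single-positive cells, and 7.496 and 7.12 in FLK1 single-positive cells. The ranges of the populations overlapped in every comparison. The largest difference was -0.18 ± 0.26 log2 units (SE) in double-positive against FOXF1 single-positive cells, with a 95% interval of -0.79 to 0.44. The FOXF1 single-positive sorts differed from each other by 0.53, more than any pair of population means.

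Shh (ENSMUSG00000002633), the ligand of node and notochord, had signals of 6.94 and 6.23 in double-positive cells, 6.81 and 6.35 in FOXF1 single-positive cells, and 5.93 and 6.33 in FLK1 single-positive cells. Only the FOXF1 single-positive and the FLK1 single-positive arrays did not overlap, and the nearest of these arrays were 6.35 and 6.33. The means differed there by 0.45 ± 0.31 log2 units (SE, adjusted p = 0.878), and by 0.46 ± 0.31 in double-positive against FLK1 single-positive cells (adjusted p = 0.9999). Single arrays moved these values. The first ran from 0.22 without FOXF1 single-positive sort 1 to 0.68 without FOXF1 single-positive sort 2, and was 0.25 without FLK1 single-positive sort 1. The second ran from 0.10 without double-positive sort 1 to 0.81 without double-positive sort 2, and was 0.26 without FLK1 single-positive sort 1. Sort 1 was above sort 2 in both FOXF1-positive populations and below it in FLK1 single-positive cells.

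Ptch1 (ENSMUSG00000021466), which encodes the receptor and is induced by the signal it restrains, had signals of 5.65 and 5.78 in double-positive cells, 6.59 and 6.14 in FOXF1 single-positive cells, and 5.79 and 5.35 in FLK1 single-positive cells. Both FOXF1 single-positive arrays lay above the other 4 arrays, and the FLK1-positive populations overlapped each other. The mean was 6.37 ± 0.32 (SD, n = 2) in FOXF1 single-positive cells and 5.57 ± 0.31 in FLK1 single-positive cells. The difference was 0.80 ± 0.26 log2 units (SE, 95% interval 0.20 to 1.40) and had an adjusted p of 0.456 in limma. In double-positive against FOXF1 single-positive cells the difference was -0.65 ± 0.26 (95% interval -1.25 to -0.05, adjusted p = 0.814). The intervals are not adjusted for the number of genes, so an interval that leaves out 0 is not a call. These comparisons share the FOXF1 single-positive arrays. Without FOXF1 single-positive sort 1, the difference in double-positive against FOXF1 single-positive cells was -0.43. In double-positive against FLK1 single-positive cells it was 0.15 ± 0.26 over all arrays.

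Smo (ENSMUSG00000001761), the membrane protein that carries the signal onward, had signals of 6.49 and 6.08 in double-positive cells, 6.07 and 6.09 in FOXF1 single-positive cells, and 5.93 and 6.45 in FLK1 single-positive cells. All 3 populations overlapped. The largest difference between means was 0.20 ± 0.26 log2 units (SE), in double-positive against FOXF1 single-positive cells, with a 95% interval of -0.41 to 0.81.

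Gli1 (ENSMUSG00000025407), the activator whose transcription depends on Hedgehog input, had signals of 6.89 and 6.84 in double-positive cells, 7.03 and 6.86 in FOXF1 single-positive cells, and 6.60 and 6.61 in FLK1 single-positive cells. All 4 FOXF1-positive arrays lay above both FLK1 single-positive arrays, while the FOXF1-positive populations overlapped. The difference was 0.34 ± 0.20 log2 units (SE, adjusted p = 0.833) in FOXF1 single-positive against FLK1 single-positive cells. It was 0.26 ± 0.20 (adjusted p = 0.9999) in double-positive against FLK1 single-positive cells. The SD between the FLK1 single-positive sorts was 0.007, and limma moderates such a small spread towards that of the other genes.

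Gli2 (ENSMUSG00000048402), which acts mainly as an activator, had signals of 6.08 and 6.07 in double-positive cells, 5.77 and 6.00 in FOXF1 single-positive cells, and 5.95 and 6.24 in FLK1 single-positive cells. The FOXF1-positive populations did not overlap, and their means were 0.19 ± 0.22 log2 units apart (SE, adjusted p = 0.9993), with the double-positive mean higher. Gli3 (ENSMUSG00000021318), which acts mainly as a repressor when Hedgehog is absent, had signals of 5.11 and 5.27 in double-positive cells, 5.24 and 5.57 in FOXF1 single-positive cells, and 5.13 and 5.26 in FLK1 single-positive cells. The double-positive and FLK1 single-positive means of Gli3 differed by -0.0011 ± 0.22 log2 units, with a 95% interval of -0.52 to 0.52.

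Hhip (ENSMUSG00000064325), a surface protein that binds and sequesters the ligands, had signals of 6.42 and 5.34 in double-positive cells, 6.03 and 6.17 in FOXF1 single-positive cells, and 5.42 and 5.58 in FLK1 single-positive cells. The double-positive sorts held both the highest and the lowest of the 6 values. Their gap of 1.08 log2 units was the largest between sorts for any of the 8 genes, whose median gap was 0.26, and exceeded every difference between population means. The FOXF1 single-positive and FLK1 single-positive arrays did not overlap and differed by 0.60 ± 0.35 (SE, adjusted p = 0.829).

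**Figure D1:**
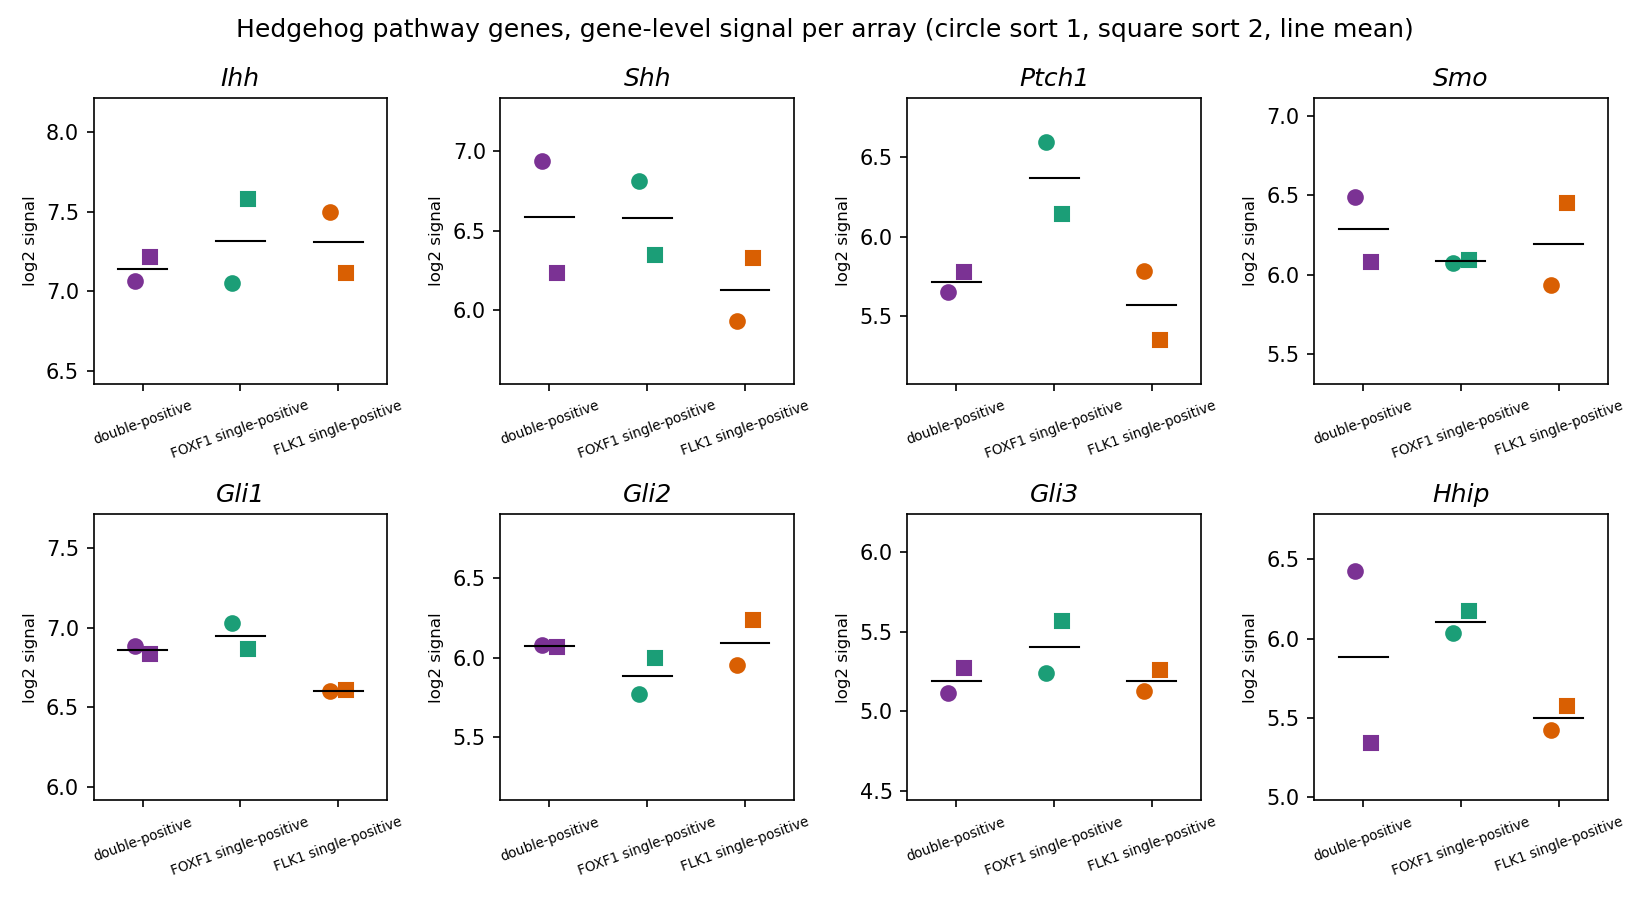
Gene-level log2 signal (y axis) of the 8 Hedgehog pathway genes on each array, by population (x axis), with circles for sort 1, squares for sort 2 and a line at the mean; each panel spans the same width of the log2 scale. Ptch1 reads 6.59 and 6.14 in FOXF1 single-positive cells, above all other arrays, and the double-positive sorts of Hhip lie 1.08 units apart.

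Double-positive against FLK1 single-positive cells sets cells labelled Foxf1-pos against cells labelled Foxf1-neg, among those labelled Flk-pos. In this comparison 0 of the 8 genes passed in limma, against 0% of all rows. At an unadjusted p under 0.05 there were 0 of 8 genes, against 4.67% of all rows. Gli1 was the 1 gene with arrays that did not overlap, higher in double-positive cells, against 32% of all rows in either direction. The median difference of the 8 genes was 0.12 log2 units, beside -0.0022 over all rows, with 5 above 0 and 3 below.

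Double-positive against FOXF1 single-positive cells sets cells labelled Flk-pos against cells labelled Flk-neg, among those labelled Foxf1-pos. In this comparison 0 of the 8 genes passed, against 0.286% of all rows. At an unadjusted limma p under 0.05 there was 1 gene, Ptch1, against 5.86% of all rows. The arrays did not overlap for Gli2, higher in double-positive cells, and Ptch1, lower, or 2 of 8 against 32.4% of all rows. The median difference was -0.13 log2 units, beside -0.0069 over all rows.

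In FOXF1 single-positive against FLK1 single-positive cells, which compares cells that carry a single marker, 0 of the 8 genes passed, against 0.545% of all rows. Ptch1 was again the 1 gene with an unadjusted limma p under 0.05, against 7.28% of all rows. The arrays of 4 genes did not overlap, all higher in FOXF1 single-positive cells (Shh, Ptch1, Gli1 and Hhip). That is 4 of 8 against 35.1% of all rows in either direction and 17.9% in that direction, and 0 genes were lower without overlap, against 17.3%. The median difference was 0.28 log2 units, beside 0.0017 over all rows, and 6 of the 8 genes were above 0. The median size of the difference was also 0.28, beside 0.19 over all rows. These comparisons share arrays pair by pair, so their counts are not separate evidence.

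**Figure D2:**
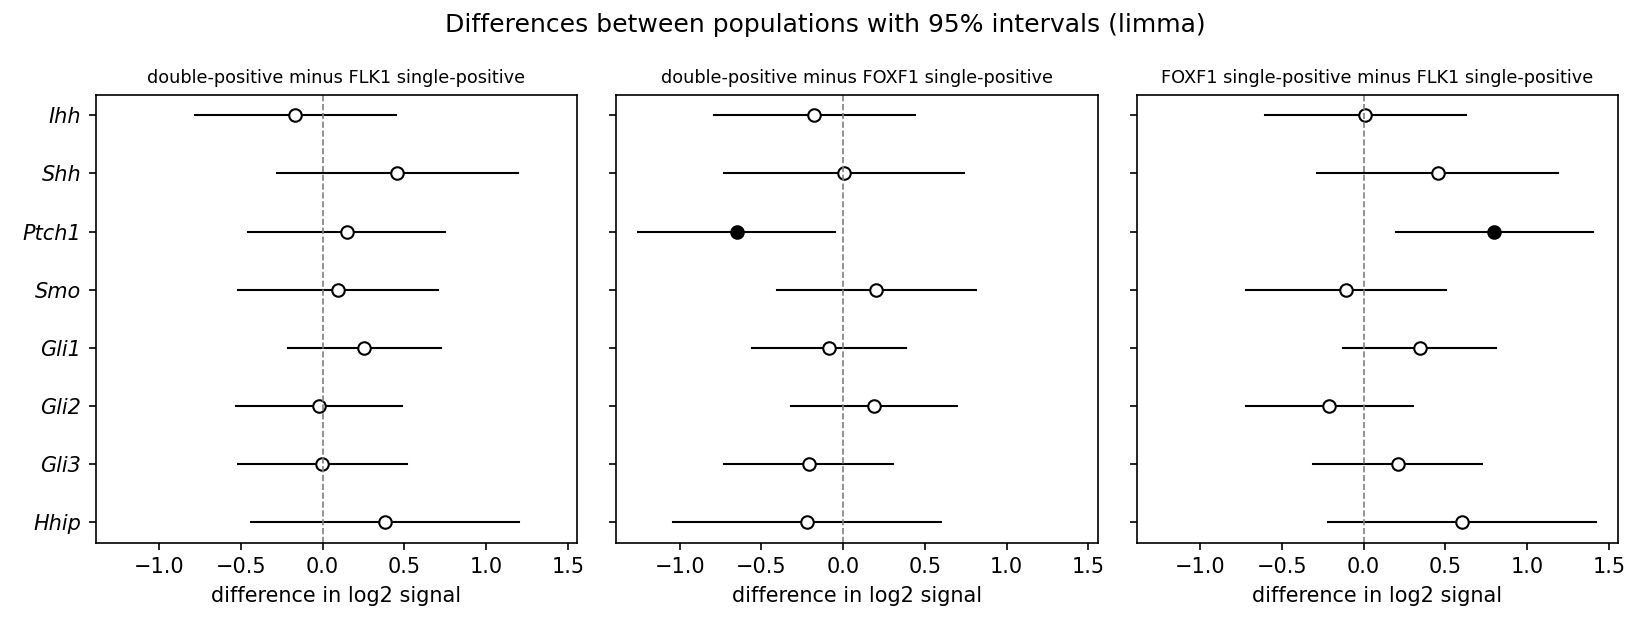
Difference in log2 signal (x axis) of each gene (y axis) in the 3 comparisons, as the limma estimate with its unadjusted 95% interval; filled points have an unadjusted p under 0.05. Ptch1 alone is filled, at -0.65 and 0.80 in the comparisons with FOXF1 single-positive cells, and no point passes after adjustment.

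The interval farthest from 0 in any comparison reached 1.42 log2 units, for Hhip in FOXF1 single-positive against FLK1 single-positive cells. The smallest difference that passed for any row was 1.44 log2 units in that comparison and 1.57 in double-positive against FOXF1 single-positive cells. With 2 arrays per population, differences of the size seen for Ptch1 therefore lay below what any row passed with.

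The exon-level table was used to see which probe sets stood behind the gene-level values. For Ihh, Shh, Ptch1, Smo, Gli1 and Hhip, all 6 gene-level values equalled the value of a probe set on the same array, but not of the same probe set on every array. Over the whole table this held for 12706 rows, and for 1 row when each array was set against another array. A value that moves between probe sets in this way is what a median over an odd number of probe sets gives, though the sources used here do not say how the submitters summarised genes. In total 9 probe sets equalled a member's value on at least 2 arrays. A single equal array is weaker: among all rows, 33080 pairs of a row and a probe set were equal on exactly 1 array, against 23196 when arrays were set against others. Such pairs were used only in rows where all 6 values equalled a probe set and where no other probe set was equal on that array, which left 6660 pairs, against 6 with shifted arrays. By this rule 10 more probe sets were tied to the 6 genes. Their values are given as a description, with no test, because an equal value on 1 array in 1 population is how they were found. Probe sets that were never equal to the gene value are not seen by this match. For Gli2 and Gli3 not all 6 values equalled a probe set, and none was tied.

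For Ptch1 the tied probe sets did not all show the gene-level pattern. Probe set 4956509, tied on 2 arrays, read 5.24 and 5.65 in double-positive cells, 6.59 and 6.46 in FOXF1 single-positive cells, and 5.79 and 5.07 in FLK1 single-positive cells. The FOXF1 single-positive arrays lay above all others, by 1.10 ± 0.32 log2 units (SE, adjusted p = 0.472 in limma over all 128950 probe sets) over FLK1 single-positive cells, and the difference in double-positive against FOXF1 single-positive cells was -1.08 ± 0.32 (adjusted p = 0.640). Probe set 4535511, tied on 3 arrays, read 5.65 and 5.78 in double-positive cells, 5.86 and 5.52 in FOXF1 single-positive cells, and 5.50 and 5.35 in FLK1 single-positive cells. Its differences were 0.27 ± 0.24 (adjusted p = 0.960) in FOXF1 single-positive against FLK1 single-positive cells and 0.026 ± 0.24 in double-positive against FOXF1 single-positive cells. The double-positive mean of probe set 4535511 was thus not below its FOXF1 single-positive mean. Probe set 4956509 was tied through sort 1 of both single-positive populations, so its differences are not separate from how it was found.

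Probe set 4749419 of Ptch1 was tied through 1 array, FOXF1 single-positive sort 2, and was singled out after its values were seen. It read 3.93 and 4.32 in double-positive cells, 6.93 and 6.14 in FOXF1 single-positive cells, and 4.37 and 3.51 in FLK1 single-positive cells. The gene-level value of the double-positive arrays was that of probe set 4535511, and that of the FOXF1 single-positive arrays came from probe sets 4956509 and 4749419. The gene-level difference of -0.65 in double-positive against FOXF1 single-positive cells therefore set different probe sets against each other.

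For Gli1 there were 5 tied probe sets, and each gene-level value but those of probe set 4480386 came from a different one. All 5 had a higher mean in FOXF1 single-positive than in FLK1 single-positive cells, by 0.094 to 0.98 log2 units. They were found through the gene-level values that show this difference, so their shared direction is not separate evidence. The largest difference was that of probe set 4480386, the 1 tied on 2 arrays, which read 6.40 and 7.02 in double-positive cells, 7.03 and 7.38 in FOXF1 single-positive cells, and 5.84 and 6.61 in FLK1 single-positive cells (adjusted p = 0.667). The gene-level signals of 6.60 and 6.61 in FLK1 single-positive cells, which agree to 0.01, belonged to different probe sets, and probe set 4480386 alone differed by 0.77 between those sorts.

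For Hhip the gene-level difference was not seen in either tied probe set. Probe set 5156834 read 6.42 and 5.81 in double-positive cells, 6.03 and 6.17 in FOXF1 single-positive cells, and 6.63 and 6.30 in FLK1 single-positive cells. Probe set 5411540 read 6.26 and 5.34 in double-positive cells, 5.27 and 5.69 in FOXF1 single-positive cells, and 5.42 and 5.58 in FLK1 single-positive cells. The gene-level value followed the brighter probe set on both FOXF1 single-positive arrays and the dimmer one on both FLK1 single-positive arrays. Between these populations the probe sets differed by -0.36 ± 0.30 and -0.018 ± 0.36 log2 units (SE), against 0.60 at gene level. The gap between the double-positive sorts was 0.62 and 0.92 in the single probe sets, against 1.08 at gene level. Probe sets of Hhip that never equalled the gene-level value are not seen. If that value is a median, some of them would lie above it in FOXF1 single-positive and below it in FLK1 single-positive cells. This was not tested.

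**Figure D3:**
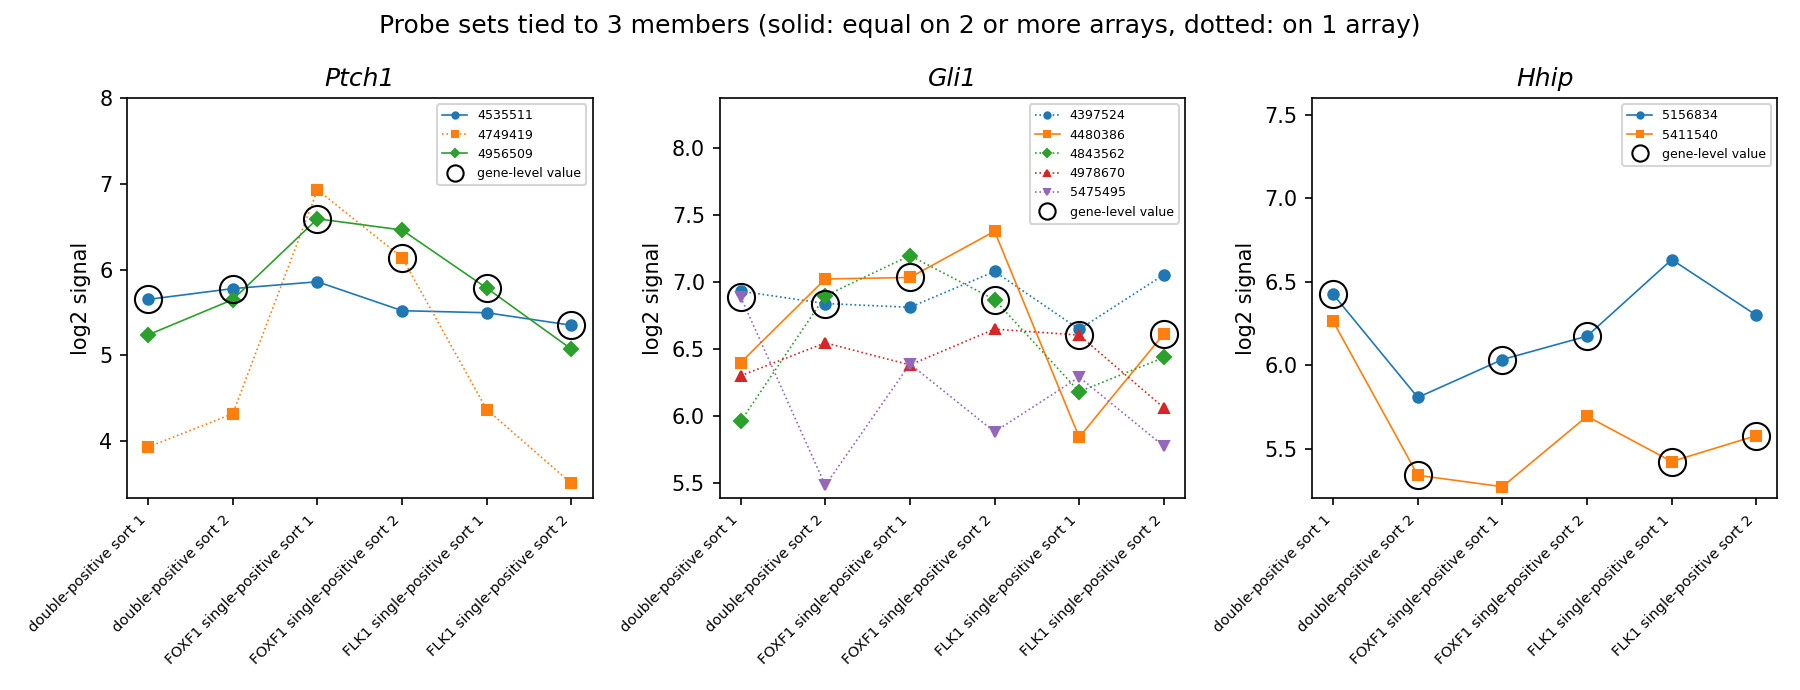
Log2 signal (y axis) of the probe sets tied to Ptch1, Gli1 and Hhip on the 6 arrays (x axis), with open circles around the gene-level value; lines only join the points of a probe set. In Ptch1 probe sets 4956509 and 4749419 peak on both FOXF1 single-positive arrays, the latter tied through FOXF1 single-positive sort 2 alone. The former was tied through sort 1 of both single-positive populations. Probe set 4535511 of Ptch1 stays between 5.35 and 5.86. In Hhip the open circles switch between 2 probe sets that show no such peak. Probe sets that never equalled the gene-level value are not drawn.

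For Ihh, probe set 5201563 read 6.90 and 6.99 in double-positive cells, 6.66 and 7.58 in FOXF1 single-positive cells, and 7.496 and 7.12 in FLK1 single-positive cells. Probe set 5599461 stayed between 6.97 and 7.21 on all 6 arrays. The 0.53 gap at gene level between the FOXF1 single-positive sorts thus joined a value of each probe set. For Shh, 3 probe sets were tied. Probe set 4463949, tied on 4 arrays, read 6.94 and 6.23 in double-positive cells, 6.98 and 6.09 in FOXF1 single-positive cells, and 5.93 and 6.33 in FLK1 single-positive cells, so its populations overlapped. Probe set 4367440 read 5.74 and 5.80 in double-positive cells, 5.96 and 6.35 in FOXF1 single-positive cells, and 4.97 and 5.77 in FLK1 single-positive cells. Probe set 4646084 read 7.17 and 7.09 in double-positive cells, 6.81 and 7.22 in FOXF1 single-positive cells, and 7.02 and 6.995 in FLK1 single-positive cells. In FOXF1 single-positive against FLK1 single-positive cells these probe sets differed by 0.40, 0.79 and 0.0070 log2 units. As for Hhip, the gene-level values of both populations came from different probe sets: 4646084 and 4367440 in FOXF1 single-positive cells, and 4463949 in FLK1 single-positive cells.

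Of the 9 probe sets tied on at least 2 arrays, 0 passed in limma in any comparison. The background was 0.000775% of all probe sets in double-positive against FLK1 single-positive cells, 0.159% in double-positive against FOXF1 single-positive cells and 0.345% in FOXF1 single-positive against FLK1 single-positive cells. At an unadjusted limma p under 0.05 there were 0 of 9 in double-positive against FLK1 single-positive cells, against 4.55% of all probe sets. In double-positive against FOXF1 single-positive cells there was 1, Ptch1 probe set 4956509, against 5.51%. In FOXF1 single-positive against FLK1 single-positive cells there were 2, Ptch1 probe set 4956509 and Gli1 probe set 4480386, against 6.78%. Both were tied through FOXF1 single-positive sort 1 and an FLK1 single-positive array, where the gene-level values differed. Their p-values and these counts are therefore not separate evidence.

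Promoter sequence was looked up because Ptch1, Gli1 and Hhip are targets of the Gli factors. RefSeq windows (GRCm38.p6) were found for 6 of the 8 genes, all but Shh and Gli1. The 250 bases before the start were searched on both strands for the Gli motif GACCACCCA and for its core CCACCC, which also reads as a CACCC box of Krüppel-like factors. The full motif was in 0 of the 6 windows, against 0.225% of all 32851 windows of that length. The core was in 5 of the 6, against 28.1% of all windows, and Ptch1 was the gene without it. The windows of both readout genes that were found are shown, Ptch1 as the gene with the smallest p and Hhip as the readout gene that holds a core match, which capitals mark. They lie at chr13:63565736-63565985 and chr8:80058009-80058258, both on the minus strand, and are written 5′ to 3′ in the direction of transcription.
Ptch1: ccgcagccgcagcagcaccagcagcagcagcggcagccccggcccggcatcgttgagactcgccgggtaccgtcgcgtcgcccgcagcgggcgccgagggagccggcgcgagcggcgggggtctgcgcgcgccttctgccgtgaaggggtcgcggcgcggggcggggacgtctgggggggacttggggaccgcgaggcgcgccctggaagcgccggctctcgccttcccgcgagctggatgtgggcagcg
Hhip: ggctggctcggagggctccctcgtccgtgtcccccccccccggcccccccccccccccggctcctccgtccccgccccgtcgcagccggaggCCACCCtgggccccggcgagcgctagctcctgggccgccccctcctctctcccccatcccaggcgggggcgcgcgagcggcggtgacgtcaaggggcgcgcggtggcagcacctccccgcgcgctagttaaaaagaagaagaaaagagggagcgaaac
The match in Hhip starts 158 bases before the start of transcription. A match of letters is no evidence of binding, and a missing match speaks only of these bases.

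Among the 8 genes, Shh, Ptch1 and Hhip had a range of at least 1 log2 unit over the 6 arrays, and rows with the most similar profile were listed for them. For Ptch1 the highest Pearson correlations over the 6 arrays were 0.995 (ENSMUSG00000047181) and 0.995 (ENSMUSG00000015112), and 105 of 5314 other rows with that range reached 0.9. For Hhip the highest was 0.998 and 18 rows reached 0.9, and for Shh it was 0.961 with 19 rows. With 6 arrays that share populations and sorts, and so many rows to choose from, such values are a description only.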

How the data were processed

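RNA of 50 sorted cells per sample was amplified with the SuperAmp kit, labelled as sense-strand DNA and hybridised to Affymetrix exon arrays, per the labels' protocols. The deposited values are log2 signals per gene or per exon-level probe set, made with Affymetrix Power Tools and RMA, per the submitters' processing notes. That the scale is log2 was taken from the range of the values, and the sources used here do not say how probe sets were grouped. The values were used as deposited. A linear model with population as the factor was fitted to every row on all 6 arrays (limma 3.58.1, R 4.3.3, lmFit and eBayes; residual df 3, prior df 4.27). Tests of the 3 contrasts were two-sided, p-values were adjusted by Benjamini-Hochberg across the whole table, and the 8 genes were read out. The fit and the match of probe sets (equal within 2e-06) were tested on simulated data. Figures used matplotlib 3.10.9.

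The genes, tests and alternatives were chosen with earlier results of these data known. All 8 genes are named. The rule for probe sets equal on 1 array was set after the values were seen. Nearest profiles were taken by Pearson correlation, with at most 2 IDs printed. The planned lists of other Hedgehog genes and of cell type markers were not used here, because the reference table pairs no Ensembl IDs with symbols. The sorts of a number were not taken as paired: their differences correlated across genes at 0.137, 0.0975 and 0.0591 between populations, not all over 0.1. As alternatives, arrays were quantile-normalized once more or centred on their medians, the dimmer 50% of rows was dropped, the prior was made robust with a trend on intensity, the fit was limited to the populations compared, the sort was a block, tied probe sets were averaged, and single arrays were left out. The number of arrays limits the precision, and the standard error of a difference had a median of 0.25 log2 units.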

Additional observations from a re-analysis of the deposited data

How the results depend on the processing

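The count of Hedgehog genes past the threshold stayed at 0 in all 3 comparisons under each of 13 alternatives, with the smallest adjusted p of a member between 0.394 and 0.9999. The count among the 9 probe sets tied on at least 2 arrays stayed at 0 under each of 12 alternatives, with 5 of the 9 tested without the dimmer 50% of probe sets. Of the 24 differences between population means, 11 kept their sign under every alternative run and 13 did not. Alternatives that change only the spread, the rows tested or the population not compared leave a difference as it was. They could not turn a sign. The differences that kept their sign include both Ptch1 differences from FOXF1 single-positive cells (0.57 to 1.02 against FLK1 single-positive cells, -0.88 to -0.43 in double-positive cells against them) and all 3 of Gli1. That of Gli1 in double-positive against FOXF1 single-positive cells fell to -0.0044 without FOXF1 single-positive sort 1. The rest were those of Gli2 and Gli3 from FOXF1 single-positive cells and of Shh from FLK1 single-positive cells. With the mean of the tied probe sets, the Hhip differences turned to -0.19 in FOXF1 single-positive against FLK1 single-positive cells, 0.16 in double-positive against FOXF1 single-positive cells and -0.025 in double-positive against FLK1 single-positive cells. In the same order those of Smo turned to 0.090, -0.71 and -0.62, and the first of Ihh to -0.083. The Smo values came from 1 probe set tied on 2 arrays, none of them double-positive. In double-positive against FLK1 single-positive cells Gli2 turned to 0.0012 after quantile normalization again and Gli3 to 0.017 after median centring. The cause of these turns was not tested. When single arrays were dropped, the sign turned for several genes. This concerned double-positive against FLK1 single-positive cells in Gli2 (-0.16 to 0.12), Gli3 (-0.081 to 0.079), Hhip (-0.16 to 0.92), Ihh (-0.36 to 0.023), Ptch1 (-0.069 to 0.36) and Smo (-0.16 to 0.35). It also concerned double-positive against FOXF1 single-positive cells in Hhip (-0.76 to 0.32), Ihh (-0.44 to 0.087), Shh (-0.35 to 0.36) and Smo (-0.0005 to 0.41), and FOXF1 single-positive against FLK1 single-positive cells in Ihh (-0.25 to 0.27) and Smo (-0.37 to 0.15). The array left alone is taken to have the spread of the other populations. Without the dimmer 50% of rows only 4 of the 8 genes were tested (Ihh, Shh, Smo and Gli1). Ptch1, Gli2, Gli3 and Hhip were dropped, so the Ptch1 differences were not run under that alternative. With sort as a replicate block, the adjusted p of Ptch1 was 0.394 in FOXF1 single-positive against FLK1 single-positive cells and 0.642 in double-positive against FOXF1 single-positive cells, and no call changed.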

Other observations

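The 4 probe sets tied to Smo did not differ in one direction. Probe set 5131707, tied on 2 arrays, read 5.47 and 5.64 in double-positive cells, below all other arrays. It read 6.07 and 6.45 in FOXF1 single-positive cells and 5.90 and 6.45 in FLK1 single-positive cells. The arrays that tied it were FOXF1 single-positive sort 1 and FLK1 single-positive sort 2, and none was double-positive. Its low double-positive values may therefore not be separate from how it was found. In double-positive against FLK1 single-positive cells its difference was -0.62 ± 0.29 log2 units (SE, limma adjusted p = 1), while the gene-level difference was 0.095 ± 0.26. The other 3 were each tied on 1 array, and their differences there were -0.55 for probe set 5461375, 0.040 for probe set 4666488 and 0.63 for probe set 5358820. Probe set 5358820 read 6.49 and 6.10 in double-positive cells, 5.82 and 5.69 in FOXF1 single-positive cells, and 4.99 and 6.34 in FLK1 single-positive cells.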
